A study of Mus musculus with 7 samples.

Results

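Cell cycle and DNA replication genes were examined in cardiac neural crest cells with and without Chd7, a chromatin remodeller of the chromodomain helicase family. The set holds 42 genes, taken by symbol from a list of cyclins, cyclin-dependent kinases, their inhibitors, replication proteins and mitotic proteins, out of 19144 gene symbols in an RNA-seq table. The rule used symbols and no measured value, though the genes were chosen with earlier results of these data known. All 42 were found. Cells positive for GFP had been sorted out of pharyngeal arches 3 to 6 at stage E10.5 of mouse development. Wnt1-Cre2, a recombinase transgene active in premigratory neural crest, and the mTmG reporter, which turns on GFP after recombination, were present in every embryo used. The 4 wild-type libraries were labelled Chd7 +/+, and the 3 Chd7 deletion libraries, numbered 1, 3 and 4, were labelled Chd7 loxp/loxp. The stated cross used mothers with floxed Chd7 on both chromosomes, so a control without any floxed copy is not what that cross alone would give, and the control genotype is given here as labelled. The labels do not say how many embryos went into a library.

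Cells divide through a fixed order of phases. In G1, D-type cyclins with Cdk4 and Cdk6 phosphorylate the retinoblastoma family, which releases E2F factors that switch on genes for DNA synthesis. The MCM helicase is loaded on replication origins by Cdc6 and Cdt1, geminin blocks a second loading, and the cyclin B and Cdk1 kinase then drives mitosis. Neural crest cells of the arches proliferate while they move and differentiate. Many of the genes are read from promoters with E2F sites, and many mitotic genes from promoters with a cell cycle homology region (CHR) near a CCAAT box, bound by the DREAM and MuvB complexes and by NF-Y.

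Promoter sequence from RefSeq (build GRCm38.p6) was matched to 33 of the 42 genes, with 38 annotated starts. No entry was matched for Ccnd1, Ccnd2, Rb1, Ccne2, Mcm4, Gmnn, Ccna2, Foxm1 and Aurkb. The last 150 bases before the start are printed below for 6 genes, chosen to show the motifs beside genes that the results turn on: Mcm5 and Bub1 for their values, Rrm2 as one of the 3 S phase genes, none of which had an E2F match, and Mcm6, Cdk1 and Kif11 for their matches. Sequences run 5′ to 3′ on the strand of the gene, and capitals mark matches to E2F (TTTNGCGC), CHR (TTTGAA) or CCAAT on either strand.
Mcm5, chr8:75109359-75109508, plus strand: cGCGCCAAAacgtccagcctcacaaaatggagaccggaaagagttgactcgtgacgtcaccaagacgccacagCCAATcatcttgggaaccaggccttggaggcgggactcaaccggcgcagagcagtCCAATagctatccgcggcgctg
Mcm6, chr1:128359706-128359855, minus strand: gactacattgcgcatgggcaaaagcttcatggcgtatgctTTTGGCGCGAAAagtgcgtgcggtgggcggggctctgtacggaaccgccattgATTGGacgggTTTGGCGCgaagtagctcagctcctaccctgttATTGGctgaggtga
Rrm2, chr12:24708104-24708253, plus strand: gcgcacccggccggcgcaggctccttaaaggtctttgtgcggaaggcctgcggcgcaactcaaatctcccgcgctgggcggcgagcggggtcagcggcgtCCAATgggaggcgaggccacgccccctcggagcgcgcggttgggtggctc
Cdk1, chr10:69352913-69353062, minus strand: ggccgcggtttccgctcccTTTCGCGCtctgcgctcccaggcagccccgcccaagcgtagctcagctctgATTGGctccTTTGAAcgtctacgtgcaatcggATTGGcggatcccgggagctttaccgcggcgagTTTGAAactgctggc
Kif11, chr19:37376232-37376381, plus strand: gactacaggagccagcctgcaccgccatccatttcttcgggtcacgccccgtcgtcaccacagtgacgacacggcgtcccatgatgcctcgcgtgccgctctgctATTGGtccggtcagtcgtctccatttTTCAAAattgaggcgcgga
Bub1, chr2:127831860-127832009, minus strand: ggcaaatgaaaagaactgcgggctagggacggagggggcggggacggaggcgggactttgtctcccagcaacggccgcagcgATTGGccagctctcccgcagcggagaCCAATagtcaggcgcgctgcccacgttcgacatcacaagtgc

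In Mcm6, the run of 12 capitals holds 2 overlapping E2F matches on opposite strands, at bases -110 and -106 before the annotated start, and the third match begins at base -47. Cdk1 has an E2F match at base -131, CHR matches at bases -71 and -15, and CCAAT matches at bases -80 and -48 within the printed stretch. Bub1 has CCAAT matches at bases -68 and -42, and its match to the CHR variant TTCGAA lies after the start, at base 15.

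Across the full windows, 250 bases before to 50 bases after each start, both strands were searched and matches were allowed to overlap. E2F matches stood in 8 of 38 promoters of the set (21.1%), against 1.38% of all 32851 promoters of the same length. By role, 5 of the 8 promoters of origin licensing genes held one (Cdt1, Mcm3, Mcm5, Mcm6 and Mcm7), and none of the 3 S phase promoters did. CHR matches stood in 9 of the 12 G2 and mitosis promoters (75.0%), against 17.9% of all promoters. CCAAT stood in 11 of those 12 (91.7%), against 37.4%. TTCGAA, the CHR variant, stood in 4 of the 38 promoters of the set (Bub1, Bub1b, Mcm7 and Top2a) and in 1.56% of all promoters. A match is a match of letters and says nothing of whether a factor binds there.

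**Figure D1:**
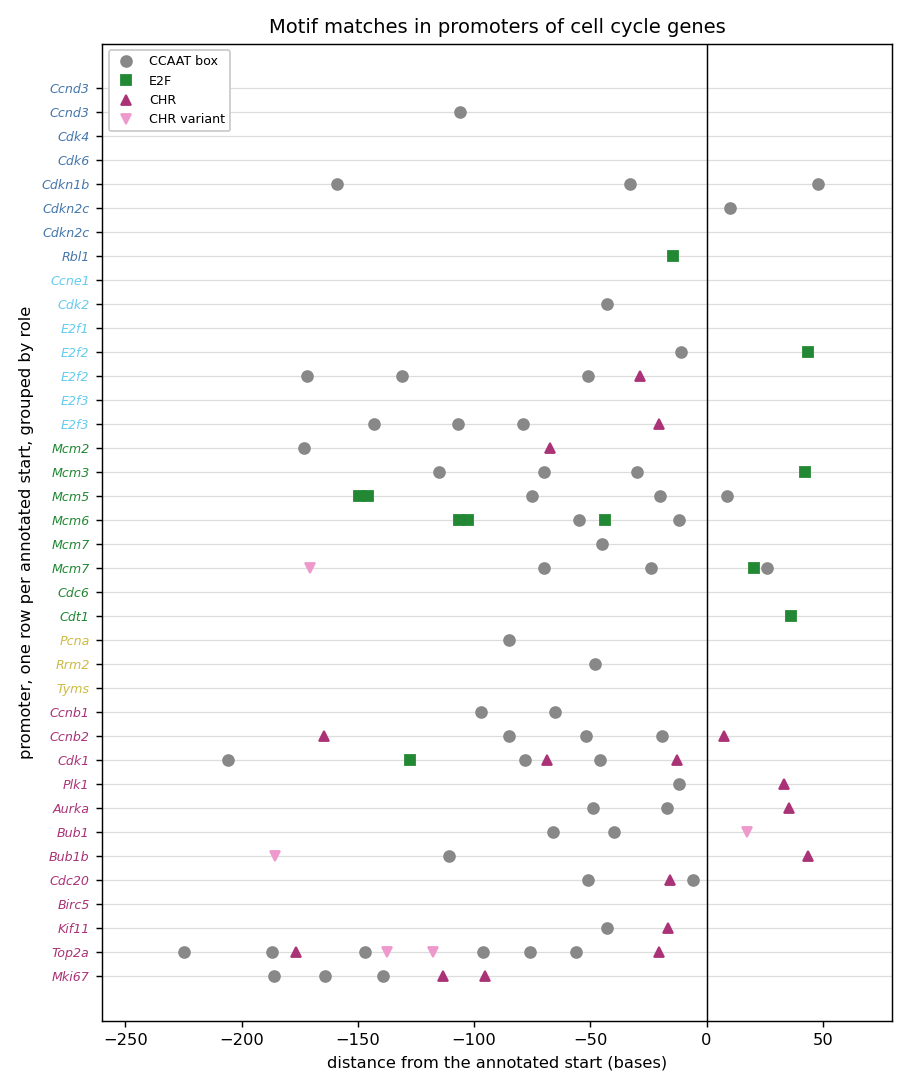
Positions of motif matches in the 38 promoters of 33 cell cycle genes. The horizontal axis is the distance from the annotated start in bases, each row is 1 annotated start coloured by role (the colours of the other plots), and symbols mark the middle of a match to the E2F, CHR, CHR variant or CCAAT motif; CHR matches gather in the G2 and mitosis rows and E2F matches in the licensing rows.

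Expression was measured as FPKM, reads scaled by gene length and by the library total, a scale on which levels can be compared between genes. Chd7 itself, the check on the labels, stood at 14.0, 13.9, 14.6 and 14.3 FPKM in wild type 1 to 4 and at 7.50, 7.72 and 7.91 FPKM in deletion 1, 3 and 4. The groups did not overlap, and the ratio of means was 0.543 (exact permutation test over 35 splits, 2-sided p = 0.0571). That p is the smaller tail doubled, and is the smallest that this rule allows with these splits. FPKM covers the whole gene, so reads from outside the deleted part count as well. Neural crest identity was visible in both groups, with mean levels in wild type and deletion of 19.5 and 34.1 FPKM for Sox10, of 12.9 and 19.8 FPKM for Foxd3, and of 22.4 and 12.9 FPKM for Twist1. Depth could be read only in relative terms from the low values, and ranged from 0.865 in deletion 4 to 1.29 in wild type 2, against wild type 1. The sum of FPKM was lowest in deletion 1, at 170809.1, and highest in wild type 4, at 209559.7. Rn45s, a precursor of ribosomal RNA, took 8.68% of that sum in deletion 1 and between 4.11% and 7.15% in the other 6 libraries. The first principal component of all tested genes, 60.5% of the variance, set wild type 1 and 2 apart from wild type 3 and 4, and deletion 1 stood apart from deletion 3 and 4 in many genes, as described below.

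Across the whole set the libraries differed as much by number as by genotype. The 42 genes summed to 1369.2, 1371.1, 1546.0 and 1689.7 FPKM in wild type 1 to 4 and to 1149.0, 1468.4 and 1456.7 FPKM in deletion 1, 3 and 4. Deletion 1 was the lowest of all libraries, and deletion 3 and 4 lay within the wild-type range. The library totals differ as well. As a share of the total, the set took 0.703%, 0.735%, 0.762% and 0.806% in wild type 1 to 4. In deletion 1, 3 and 4 it took 0.673%, 0.713% and 0.763%, so deletion 1 lay closer to wild type 1 on that scale. In wild type, 35 of the 41 tested genes were higher in both libraries 3 and 4 than in both libraries 1 and 2, against 56.1% of all tested genes. In the deletion, 39 of 41 were higher in libraries 3 and 4 than in library 1, against 68.2% of all. E2f2 was the one gene of the set with wild type 3 and 4 both below wild type 1 and 2, as in 12.9% of all. What the numbers stand for (a litter, a day or a run) is not given in the sources used here.

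**Figure D2:**
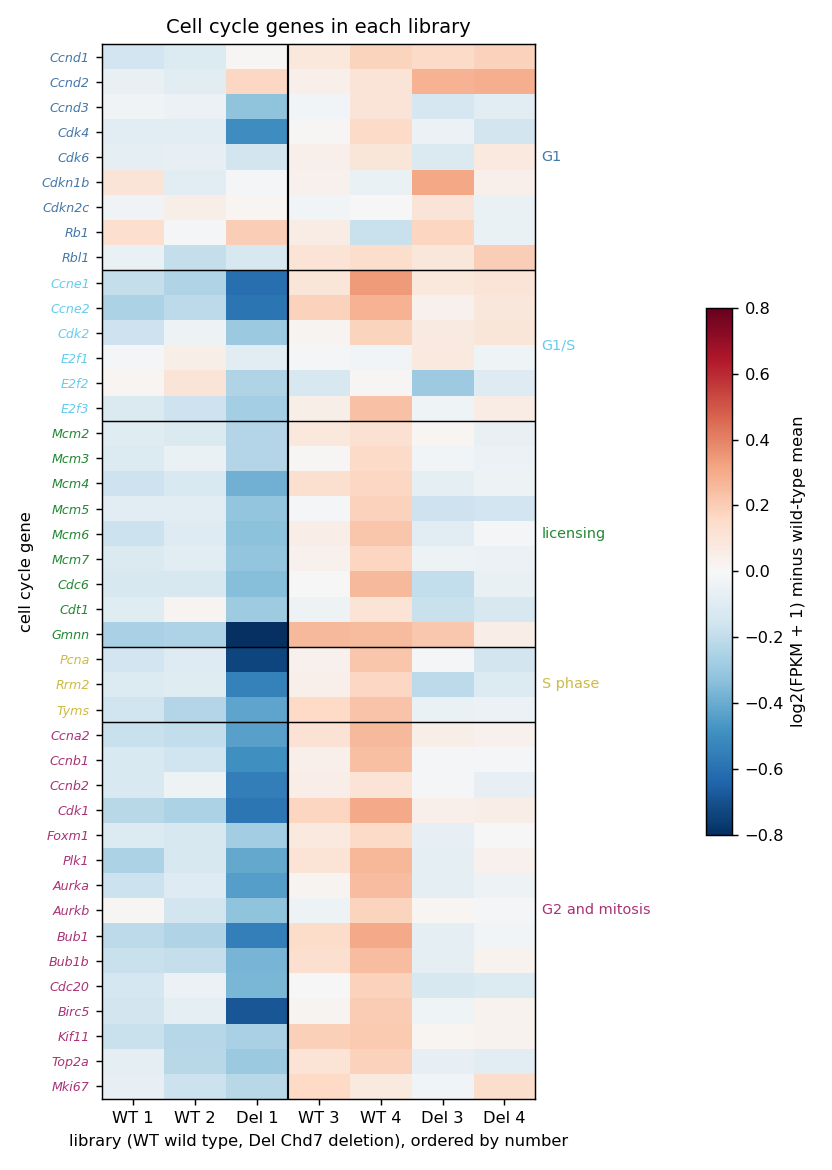
Levels of the 42 genes in each library. Each cell is log2(FPKM + 1) of a gene (vertical axis, grouped by role) minus its wild-type mean, red above and blue below, with libraries on the horizontal axis ordered by number; deletion 1 is the bluest column, from which Ccnd2 and Rb1 stand out in red, and wild type 4 is red for most genes.

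Against that spread, no gene of the set passed the test between genotypes. The limma test was run on log2(FPKM + 1) for the 11039 genes that averaged 1 FPKM or more, with p-values adjusted by the Benjamini-Hochberg method over all of them and called at 0.05, and 41 of the 42 genes entered. None of the 41 was called, against 0.888% of all tested genes (0.408% as higher and 0.48% as lower). At an unadjusted p under 0.05 there were 3 of 41, Ccnd2 higher and E2f2 and Cdt1 lower, against 7.38% of all tested genes (2.56% higher and 4.82% lower). The lowest adjusted p was 0.466, for Ccnd2. The 95% intervals of the log2 fold change (deletion minus wild type) ran no lower than -0.84, for Gmnn, and no higher than 0.45, for Ccnd2, over the 41 genes, and the median standard error was 0.12. These intervals show how large a difference the libraries leave room for; they do not show equal levels.

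With the library number as a block, so that deletion 1, 3 and 4 are set against wild type 1, 3 and 4, the standard errors were smaller, with a median of 0.0602. One gene of the 41 was then called, Bub1, a kinase of the spindle checkpoint, which was lower in the deletion (limma, adjusted p = 0.0421). Of all tested genes 3.32% were called in this fit, 1.04% as higher and 2.27% as lower. At an unadjusted p under 0.05 the blocked fit had 29 of 41, 28 of them lower and 1 (Ccnd2) higher, against 22.8% of all tested genes (17.7% lower and 5.11% higher). Wild type 2 has no partner and adds nothing to the blocked difference. With the number as a covariate instead (1 and 2 against 3 and 4), 9 of the 41 were called, Ccnd2 higher and the rest lower. Over all 11039 tested genes that fit called 720, 169 higher and 551 lower.

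The direction was lower for most of the set, by small amounts. The log2 fold change was below 0 for 36 of the 41 genes, against 65.4% of all tested genes, and its median was -0.15 against -0.04 over all genes. The 5 genes above 0 were Ccnd1, Ccnd2, Cdkn1b, Rb1 and Rbl1, all in the G1 group, while all 33 genes of the other roles were below 0. Without deletion 1, 25 of 41 were below 0 and the median was -0.02. The medians by role were then 0.10 for G1, 0.04 for G1/S, -0.05 for licensing, -0.08 for S phase and -0.02 for G2 and mitosis, against 0.02 over all genes. With libraries 3 and 4 of both genotypes alone, 35 of 41 were below 0 and the median was -0.15, against -0.04 over all genes. The median of the set was -0.06 without wild type 4 and -0.23 without deletion 4, against -0.02 and -0.05 over all genes. With library weights 31 of 41 were below 0 and the median was -0.05, against -0.02 over all genes. Dividing each library by its median or its upper quartile left 33 of 41 below 0, with Cdk2, E2f1 and Mki67 turning to above 0, and rescaling without Rn45s left 31, with Cdk6 and Kif11 also turning. Under these scalings the median of the set was -0.1, -0.09 and -0.07, in the same order, against -0.0, 0.01 and 0.03 over all genes. By pair, 32 of the 41 genes were lower in the deletion in all 3 pairs, against 36.7% of all tested genes, and Ccnd1, Ccnd2 and Rb1 were higher in all 3, against 11.5%. The median pair difference over the set was -0.22, -0.10 and -0.20 on the log2 scale in pairs 1, 3 and 4. Over all tested genes it was -0.11, -0.00 and -0.09.

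**Figure D3:**
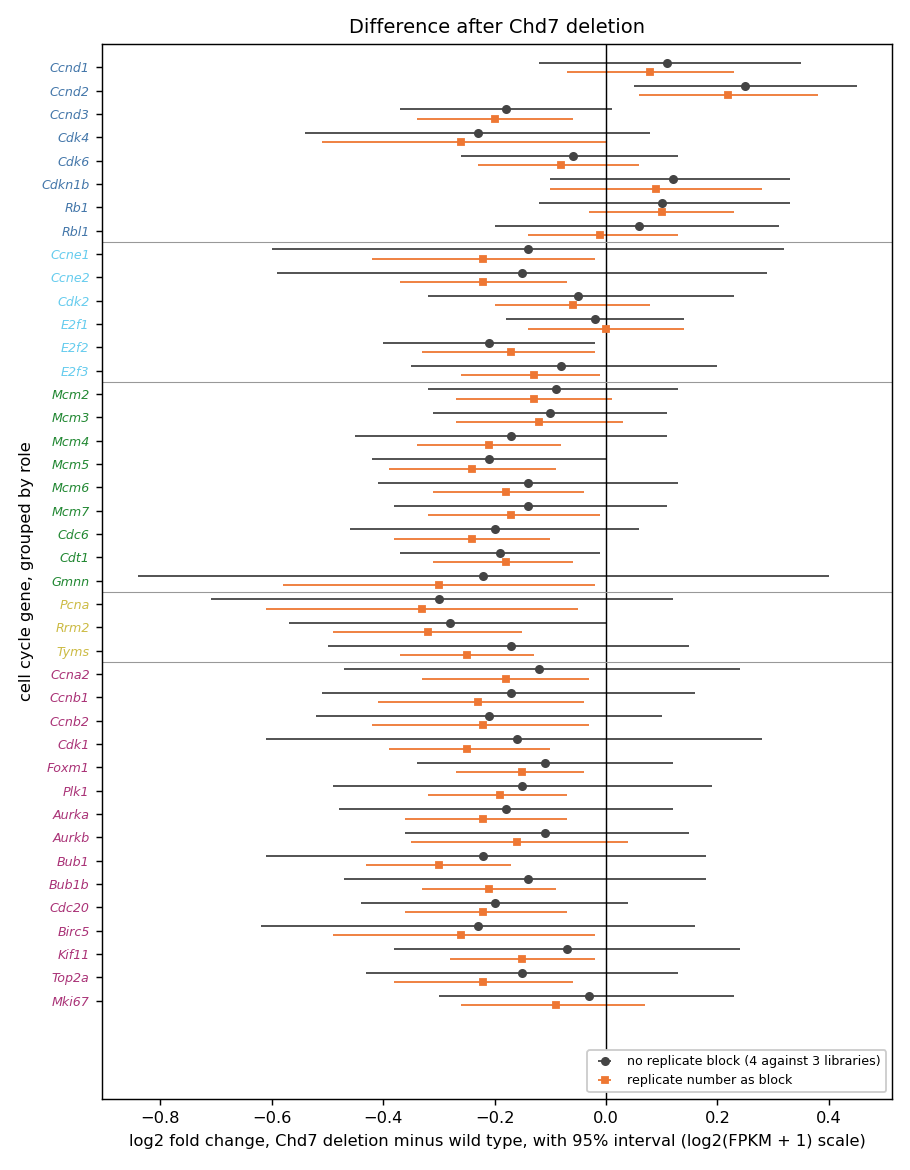
Log2 fold changes of the 41 tested genes. The horizontal axis is deletion minus wild type on the log2(FPKM + 1) scale with 95% intervals, black without and orange with the library number as block, and genes are coloured by role on the vertical axis; most points lie left of 0 in both fits, the black intervals nearly all cross 0, and Ccnd2 lies right of 0.

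Marker lists of cell types also differed between the genotypes. Markers of glial precursors and melanoblasts summed to between 60.9 and 71.53 FPKM in wild type and between 102.8 and 116.7 FPKM in the deletion, and 4 of their 7 tested genes were called higher (Sox10, Erbb3, Foxd3 and Dct). Arch mesenchyme markers summed to between 104.2 and 142.1 FPKM in wild type and between 67.99 and 97.08 FPKM in the deletion. Of these 8 genes, 6 had a log2 fold change below 0, and Tfap2a and Tfap2b were above 0. Hand2 was the only one called, as lower. In these bulk samples, fewer cells of a type and less RNA per cell cannot be told apart, and the part of cell makeup in the cell cycle values was not tested. Blood cell markers (9 genes) summed to between 22.53 and 37.96 FPKM in wild type and between 22.7 and 55.09 FPKM in the deletion, while endothelial (7 genes), cardiac muscle (6 genes) and epithelial markers (6 genes) summed to at most 15.56 FPKM in any library.

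In the G1 group, the D-type cyclins, which carry growth signals to Cdk4 and Cdk6, were unequal in direction. Ccnd2 (chr6:127125162-127152193, on GRCm38, the build that mm10 names) stood at 80.8, 79.3, 86.4 and 90.3 FPKM in wild type 1 to 4 and at 94.6, 102 and 103 FPKM in deletion 1, 3 and 4. Every deletion library was above every wild-type library, which held for 3.0% of all tested genes in this direction. Its log2 fold change was 0.25 (95% interval 0.05 to 0.45) and did not pass the test (limma, adjusted p = 0.466). Ccnd3 (chr17:47505051-47599691) stood at 26.7, 26.3, 26.8 and 29.3 FPKM in wild type and at 21.6, 24.7 and 25.7 FPKM in the deletion. Here every deletion library was below every wild-type library, as for 6.17% of all tested genes, with a log2 fold change of -0.18 (adjusted p = 0.703). Ccnd1 averaged 49.6 FPKM ± 5.51 (SD, n = 4) in wild type and 53.6 ± 3.41 (SD, n = 3) in the deletion, and the groups overlapped.

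The makeup of the D-cyclin pool can be read within each library, where scaling between libraries plays no part. Ccnd2 made up 53.2%, 52.4%, 52.2% and 51.4% of the summed D-cyclin FPKM in wild type 1 to 4, and 57.0%, 56.2% and 55.8% in deletion 1, 3 and 4. Ccnd3 made up between 16.2% and 17.6% in wild type and between 13.0% and 13.9% in the deletion. For both, the ranges of the groups were apart by more than the spread within either group. Ccnd1 made up 30.7% ± 1.26 (SD, n = 4) in wild type and 30.2% ± 0.182 (SD, n = 3) in the deletion. These shares were computed after the values of the genes were known and are given without a test. They show that the cyclins differed unequally, not which of them stayed constant.

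**Figure D4:**
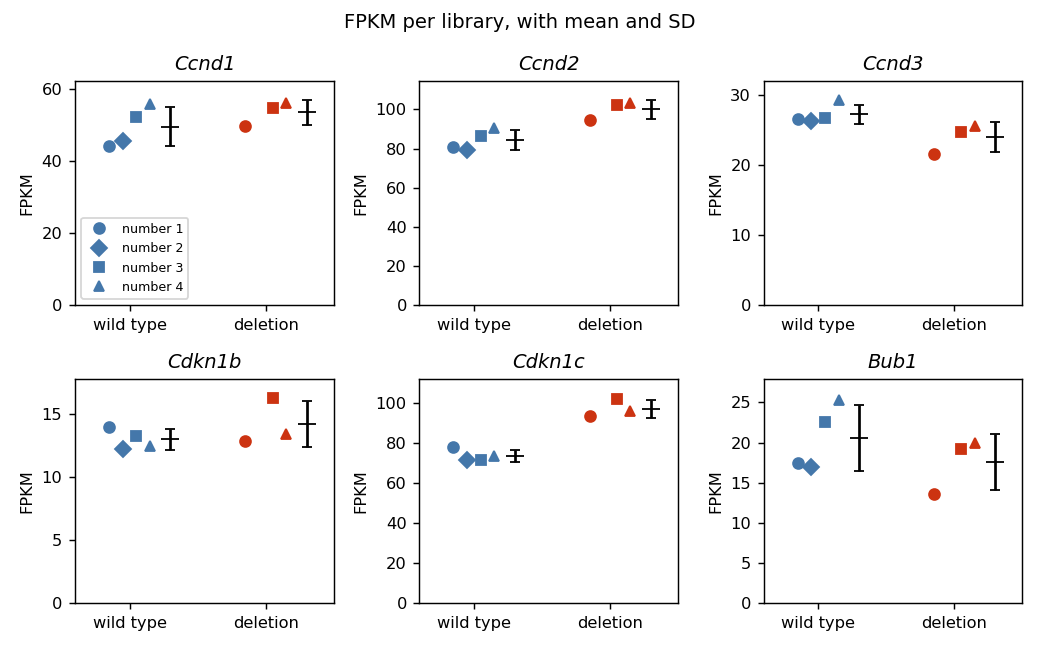
FPKM of 6 genes in each library. Points are libraries, with the symbol giving the library number, and the bar beside them is the mean with its SD (4 wild-type, 3 deletion libraries); Ccnd2 and Cdkn1c are higher in every deletion library, Ccnd3 is lower in every deletion library, and Bub1 follows the library number in both groups.

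Cdk4, the D-cyclin partner with the highest level of the whole set, had the largest difference among the G1 genes that were lower. It stood at 206, 206, 219 and 243 FPKM in wild type and at 154, 211 and 197 FPKM in the deletion. Deletion 3 lay within the wild-type range, and deletion 1 was far below the rest. Cdk6 was at far lower levels, 4.27 FPKM ± 0.305 (SD, n = 4) and 4.06 ± 0.445 (SD, n = 3). Cdkn1b, which encodes the kinase inhibitor p27, averaged 13.0 FPKM in wild type and 14.2 FPKM in the deletion, where deletion 3 reached 16.3 FPKM and deletion 1 was at 12.9 FPKM. Rb1, the retinoblastoma protein, averaged 5.48 and 5.97 FPKM, and Rbl1, its relative p107, 6.23 and 6.51 FPKM. For these 3 genes the groups overlapped. Cdkn2c, the INK4 inhibitor p18, averaged 0.278 and 0.297 FPKM and was too low to be tested.

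Genes of the G1/S transition had a median log2 fold change of -0.11. E2f2 had the largest, -0.21 (limma, adjusted p = 0.605). It stood at 2.80, 3.05, 2.44 and 2.79 FPKM in wild type and at 2.19, 2.08 and 2.50 FPKM in the deletion, so that deletion 4 was just above the lowest wild-type library. Ccne1 and Ccne2, the E-type cyclins that activate Cdk2, averaged 14.5 and 5.74 FPKM in wild type and 13.2 and 5.11 FPKM in the deletion. Both varied more by number than by genotype: Ccne2 was 1.46 times as high in wild type 3 and 4 as in wild type 1 and 2. The pair of E cyclins kept nearly the same makeup, with Ccne1 at 71.7% ± 1.27 (SD, n = 4) of their sum in wild type and 72.1% ± 0.412 (SD, n = 3) in the deletion. Cdk2 averaged 20.4 and 19.8 FPKM, E2f1 5.12 and 5.06 FPKM, and E2f3 11.5 and 10.9 FPKM.

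All 9 origin licensing genes were lower in the deletion in all 3 pairs, against 36.7% of all tested genes. None of the 9 passed the test in all 7 libraries, with or without the block. Other fits called some of them lower: Mcm4 and Mcm5 with the number as a covariate, Mcm5 with the block on libraries 1 and 4, and Cdc6 with the block on libraries 3 and 4. All 9 log2 fold changes stayed below 0 under the other scalings. Without deletion 1, 8 of the 9 were below 0, Gmnn was above 0, and the median was -0.05. Mcm5 (chr8:75109569-75128439, GRCm38), a subunit of the replicative helicase, stood at 46.7, 46.6, 49.0 and 56.3 FPKM in wild type and at 39.6, 44.1 and 44.5 FPKM in the deletion. Cdt1 (chr8:122568015-122573554), which loads the helicase, stood at 18.1, 19.8, 18.9 and 21.1 FPKM in wild type and at 15.8, 17.1 and 17.7 FPKM in the deletion. For both genes every deletion library was below every wild-type library, as for 6.17% of all tested genes. With Ccnd3 this held for 3 of the 41 genes (7.32%), a share near that of all genes, and Ccnd2 was the 1 gene of 41 (2.44%) with every deletion library above. The log2 fold changes of Mcm5 and Cdt1 were -0.21 and -0.19 (limma, adjusted p of 0.685 and 0.611; 0.105 and 0.12 with the block). Gmnn, which encodes geminin, the inhibitor of Cdt1, was spread much more widely. It stood at 12.7, 12.8, 18.6 and 18.5 FPKM in wild type and at 7.63, 18.0 and 16.0 FPKM in the deletion. Deletion 1 was far below the rest and deletion 3 close to wild type 3, so the standard error of 0.271 was larger than the log2 fold change itself, -0.22.

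The other helicase subunits had log2 fold changes between -0.09 (Mcm2) and -0.17 (Mcm4), smaller than that of Mcm5. Mcm2, Mcm3, Mcm4, Mcm6 and Mcm7 averaged 49.8, 45.5, 46.8, 38.8 and 62.9 FPKM in wild type and 46.6, 42.3, 41.6, 35.1 and 57.2 FPKM in the deletion. The 6 subunits form a ring of 1 copy each, and their makeup was compared within libraries. Mcm7, the most abundant, made up 21.4% ± 0.133 (SD, n = 4) of their summed FPKM in wild type and 21.5% ± 0.269 (SD, n = 3) in the deletion, and Mcm6, the least, made up 13.2% in both groups. Mcm5 ranged from 15.7% to 17.4% over the 7 libraries and averaged 16.9% ± 0.523 (SD, n = 4) in wild type and 16.1% ± 0.564 (SD, n = 3) in the deletion, with overlap. The sum itself ranged from 236.2 FPKM in deletion 1 to 329.4 FPKM in wild type 4. Cdc6, which recruits the helicase with Cdt1, averaged 6.31 and 5.36 FPKM, and its pair differences were -0.21, -0.19 and -0.32 on the log2 scale.

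The 3 S phase genes had the largest median log2 fold change of the roles, -0.28. Pcna, the sliding clamp of DNA polymerase, stood at 128, 133, 146 and 167 FPKM in wild type and at 85.4, 142 and 129 FPKM in the deletion. Deletion 1 was the lowest library here by far, and the other two deletion libraries lay within the wild-type range. Between partners, the deletion to wild-type ratio was 0.669 in pair 1, 0.973 in pair 3 and 0.77 in pair 4. Rrm2, the small subunit of ribonucleotide reductase, stood at 76.9, 77.5, 85.6 and 93.4 FPKM in wild type and at 56.9, 71.8 and 77.1 FPKM in the deletion, and its pair ratios of 0.74, 0.839 and 0.826 were closer to each other. Its log2 fold change was -0.28 (limma, adjusted p = 0.68, and 0.0715 with the block). Tyms, thymidylate synthase, averaged 11.4 FPKM ± 1.96 (SD, n = 4) and 9.96 ± 1.56 (SD, n = 3), with pair ratios of 0.817, 0.85 and 0.814 (adjusted p = 0.0563 with the block).

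All 15 genes of G2 and mitosis had a log2 fold change below 0 on the FPKM scale as deposited, though Mki67 was above 0 under the other scalings and Kif11 without Rn45s. Without deletion 1, 10 of the 15 were below 0, and Ccna2, Cdk1, Aurkb, Kif11 and Mki67 were above 0. By pair, 13 of the 15 genes were lower in all 3, against 36.7% of all tested genes. The exceptions were Aurkb in pair 3 and Mki67 in pair 4. Bub1 (chr2:127801122-127831865), the gene called in the blocked fit, stood at 17.4, 17.0, 22.6 and 25.3 FPKM in wild type and at 13.6, 19.2 and 20.0 FPKM in the deletion. Deletion 3 and 4 were above wild type 1 and 2, so the groups overlapped, while each deletion library was below its own partner, with ratios of 0.779, 0.847 and 0.79. Without the block the log2 fold change of Bub1 was -0.22 (standard error 0.174, adjusted p = 0.933), and with it -0.30 (standard error 0.0527). Blocked limma fits on 2 of the 3 pairs gave Bub1 an adjusted p of 0.0358 with pairs 3 and 4 and 0.03 with pairs 1 and 4. These fits reuse pairs of the full blocked fit, so they are not independent of its call. They also leave few libraries to estimate the spread. The fit on pairs 1 and 3 called no gene at all, not even Chd7 (adjusted p = 0.196). Over all 22 alternatives the adjusted p of Bub1 ranged from 0.0157 to 1.0. Birc5, which encodes survivin of the chromosomal passenger complex, had the largest log2 fold change of this role without the block, -0.23. It stood at 5.88, 6.21, 6.75 and 7.76 FPKM in wild type and at 3.74, 6.44 and 6.78 FPKM in the deletion, where deletion 1 alone was below the wild-type range.

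The cyclins of mitosis were also lower on average in the deletion, without passing the test. Ccna2, Ccnb1 and Ccnb2 averaged 33.3, 57.3 and 25.9 FPKM in wild type and 30.7, 51.0 and 22.6 FPKM in the deletion, and Cdk1, their kinase partner, 15.1 and 13.5 FPKM. Cdk1 was 1.43 times as high in wild type 3 and 4 as in wild type 1 and 2, a larger difference than the 1.12 times between the group means of wild type and deletion. Foxm1, a transcription factor of mitotic genes, averaged 14.7 and 13.5 FPKM, with pair ratios of 0.884, 0.899 and 0.893 that hardly differed. Among the mitotic kinases, Plk1 averaged 23.4 and 20.9 FPKM, Aurka 22.4 and 19.7 FPKM, and Aurkb 19.9 and 18.5 FPKM. Bub1b, a checkpoint partner of Bub1, averaged 27.3 and 24.5 FPKM, and Cdc20, the activator of the anaphase-promoting complex that the checkpoint holds back, 38.8 and 33.6 FPKM. Kif11, the spindle motor Eg5, averaged 23.7 and 22.3 FPKM, and Top2a, topoisomerase II, 91.9 and 82.4 FPKM. Mki67, the proliferation marker Ki-67, averaged 31.1 FPKM ± 3.31 (SD, n = 4) and 30.4 ± 3.91 (SD, n = 3), with a log2 fold change of -0.03.

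**Figure D5:**
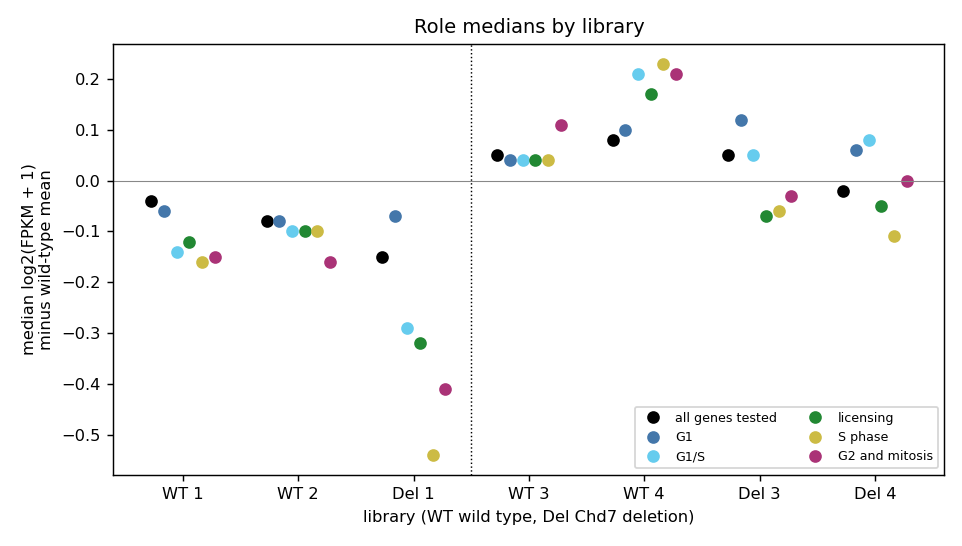
Median level of each role in each library. The vertical axis is the median over the genes of a role of log2(FPKM + 1) minus the wild-type mean, with all tested genes in black; in deletion 1 the S phase median was -0.54 and the G2 and mitosis median -0.41 against -0.15 over all genes, while the G1 median was -0.07.

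Roles differed in how far the libraries spread. Wild type 3 and 4 exceeded wild type 1 and 2 by a median of 0.28 on the log2 scale for G2 and mitosis, 0.26 for S phase, 0.24 for G1/S, 0.21 for licensing and 0.14 for G1, against 0.12 over all tested genes. Deletion 3 and 4 exceeded deletion 1 by 0.39, 0.38, 0.34, 0.21 and 0.17 in the same order, against 0.16 over all. Neuron markers ran the other way within wild type: they summed to 408.7, 339.5, 299.8 and 213.7 FPKM in wild type 1 to 4, and to 388.3, 350.5 and 227.0 FPKM in deletion 1, 3 and 4. Tubb3, the neuronal tubulin, alone ranged from 99.1 FPKM in wild type 4 to 209 FPKM in wild type 1. Arch mesenchyme markers were also higher in wild type 3 and 4, at 130.7 and 142.1 FPKM, than in wild type 1 and 2, at 111.1 and 104.2 FPKM. The part of these markers in the spread of the cell cycle genes was not tested.

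Other genes of the cell cycle, 124 in lists of the replisome, nucleotide supply, mitosis and cell cycle control were examined beside the set. Of the 121 tested none was called without the block, and at an unadjusted p under 0.05 there were 6 (4.96%), 1 higher and 5 lower. Of all tested genes 0.888% were called and 7.38% had an unadjusted p under 0.05. Every deletion library was below every wild-type library for 4 of the 121 (Gins2, Fen1, Pkmyt1 and Fzr1, 3.31%), against 6.17% of all tested genes. Every deletion library was above for 1 (Cdkn1c, 0.826%), against 3.0%. Both shares were smaller than those over all genes. The median log2 fold change of the 121 genes was -0.11, against -0.04 over all tested genes. Of the 121, 86 were lower in all 3 pairs, against 36.7% of all tested genes. Without deletion 1, 58 of the 121 were below 0 and 63 above 0, and their median was 0.01, against 0.02 over all genes. With the block 2 were called (1.65%, against 3.32% of all tested genes), both lower: Rfc4, a subunit of the clamp loader, and Fbxo5, which encodes Emi1, an inhibitor of the anaphase-promoting complex (limma, adjusted p of 0.0493 and 0.0447). Rfc4 stood at 17.1, 18.4, 23.1 and 24.5 FPKM in wild type and at 13.6, 19.6 and 20.1 FPKM in the deletion. Fbxo5 stood at 11.4, 12.0, 17.6 and 18.5 FPKM in wild type and at 8.21, 14.8 and 14.9 FPKM in the deletion. In both, as in Bub1, the groups overlapped while each deletion library was below its partner.

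Cdkn1c (chr7:143458339-143461050), which encodes the kinase inhibitor p57, had the largest log2 fold change of the control list and was higher. It stood at 77.8, 71.3, 71.5 and 73.3 FPKM in wild type and at 93.3, 102 and 95.8 FPKM in the deletion, with no overlap. The ratio of means was 1.32 and the log2 fold change 0.40 (95% interval 0.21 to 0.58), with an adjusted p of 0.0899 in limma and 0.0559 with the block. It passed the threshold under each of the other scalings tried, with an adjusted p of 0.0267 after scaling to the median, 0.0261 to the upper quartile and 0.0335 without Rn45s. Over all 22 alternatives the adjusted p ranged from 0.00127 to 0.482. Unlike Bub1, it did not follow the library number, at 0.971 times the level in wild type 3 and 4 as in wild type 1 and 2. Its level was several times that of Cdkn1b, while the p53 target Cdkn1a averaged 0.733 and 0.768 FPKM. Pkmyt1, an inhibitory kinase of Cdk1, averaged 5.02 and 4.09 FPKM without overlap, and its difference lay mostly in pair 1, with ratios of 0.58, 0.984 and 0.909.

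In the replisome list, the largest log2 fold changes were those of Gins2 and Gins4, subunits of the GINS complex of the helicase, at -0.36 and -0.26, and of Rpa2, a subunit of the single-strand binding protein, at -0.25. Gins2 averaged 13.1 and 10.2 FPKM without overlap, but deletion 1, at 7.15 FPKM, was well below deletion 3 and 4, at 11.6 and 11.9 FPKM. Fen1, the flap nuclease of lagging-strand synthesis, averaged 23.8 and 20.0 FPKM, also without overlap, with pair ratios of 0.827, 0.849 and 0.782. In the nucleotide supply list they included Tk1 (-0.25) and Dut (-0.18), and in the mitotic list Cks1b (-0.39), Cenpa (-0.28) and Spc24 (-0.25). Cks1b, a small partner of the cyclin-dependent kinases, stood at 51.1, 53.8, 64.5 and 74.0 FPKM in wild type and at 31.5, 56.5 and 53.7 FPKM in the deletion, again with deletion 1 far below the rest. Fzr1, an activator of the anaphase-promoting complex in G1, stood at 21.2, 21.3, 20.7 and 21.9 FPKM in wild type and at 18.1, 18.8 and 18.9 FPKM in the deletion. Its groups were well apart and did not follow the library number, and its log2 fold change was -0.18 (limma, adjusted p = 0.448).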

How the data were processed

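The authors deposited 1 table of FPKM values (reads scaled by gene length and library total), with 1 column for each of 7 libraries. Build mm10, the aligner HISAT2, Partek, SAMtools, Trimmomatic 0.38 and bcl2fastq 2.18.0.12 are listed in the submitters' processing notes. How genes were annotated and counted is not given in the sources used here. Per the labels' protocols, total RNA with an integrity number of at least 9.5 was depleted of ribosomal RNA and made into strand-specific libraries. FPKM is relative to the library total, so abundant transcripts lower all other values. Of 19169 rows, 25 with a date in place of a symbol were left out (at most 0.166% of FPKM). Gene positions came from GENCODE on GRCm38. Absolute depth is unknown, so no counting intervals were derived.

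The test was limma (version 3.58.1, under R 4.3.3), 2-sided and with an intensity trend, on log2(FPKM + 1) of the 11039 genes that averaged 1 FPKM or more, adjusted by Benjamini-Hochberg over all of them at 0.05. Fold changes on this scale understate those of low genes. P-values measure the spread between libraries, which may be partly technical, since no separate embryos are named. Same-numbered libraries deviated together (correlations of 0.704, 0.399 and 0.775 for numbers 1, 3 and 4). So did wild type 2 with deletion 1 (0.592), wild type 3 with deletion 4 (0.377) and wild type 4 with deletion 3 (0.25). Between numbers 1 and 2 and numbers 3 and 4 the correlations ran from -0.716 to -0.305. These values do not tell same-numbered partners from a split of 1 and 2 against 3 and 4. A fit with the number as block is given where it changes a call. Tables used Python 3.11.15, pandas 2.3.3, numpy 2.4.6 and matplotlib 3.10.9.

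The genes, roles and lists were chosen with earlier results of these data known. All genes of the set are named by group means. Values per library are given for those called in either fit, those whose groups do not overlap and the largest difference of each role. Of other cell cycle genes, those called and the 3 largest of each list are named, except 1 gene that is not reported here; Fen1, Fzr1, Cdkn1a and Tubb3, and the values per library of Cdkn1c, Gins2 and Cks1b, were added after their values were seen. Of 22 alternatives, 18 were planned: another pseudocount, filters, scalings, weights, number as covariate or block, libraries 3 and 4 alone, and each library left out.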

Additional observations from a re-analysis of the deposited data

How the results depend on the processing

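Without the block, no cell cycle gene of the set was called with another pseudocount or low-value filter, without the trend, with library weights, or with any library left out, where all genes called ranged from 4 to 72 and the median log2 fold change of the set from -0.23 to -0.02. Genes called over the whole table numbered 98 as reported. They numbered 62 without a filter, 32 with a mean of at least 5 FPKM, 154 scaled to the median, 156 scaled to the upper quartile and 213 with weights. Scaling to the upper quartile called Ccnd2 (1 gene of the set, higher). Cdkn1c was the 1 other cell cycle gene called higher with weights, with libraries 3 and 4 alone, and under the scalings named above. The replicate block called 366 genes, 115 higher and 251 lower. Of these, 1 was of the set and 2 were other cell cycle genes, all 3 lower. The number as a covariate (1 and 2 against 3 and 4) called 720 genes, 169 higher and 551 lower. Of the set it called 1 higher (Ccnd2) and 8 lower (Mcm4, Mcm5, Rrm2, Tyms, Cdk1, Bub1, Bub1b and Cdc20). Of the other cell cycle genes it called 1 higher and 25 lower. The following 4 fits were chosen after seeing the data. The block on libraries 3 and 4 called 859 genes (394 higher and 465 lower), of the set 2 lower (Cdc6 and Bub1), and of the other cell cycle genes 1 higher and 8 lower. On libraries 1 and 4 it called 1028 genes, 123 higher and 905 lower, so most calls over the whole table were lower in that fit. Among them were 10 of the set, all lower, and of the other cell cycle genes 1 higher and 24 lower. On libraries 1 and 3 it called 0 genes. Scaled to the median, the block called 797 genes, of the set 1 higher and 2 lower (Ccnd2, Rrm2 and Bub1), and of the other genes 2 higher and 4 lower. In that fit 56.0% of all calls were higher, against 31.4% with the block alone. Over all 22 alternatives, 26 of the 41 genes kept 1 sign. The cause of these differences was not tested. The median standard error of the set was 0.12 on the log2 scale and 0.0602 with the block.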
